A study of Homo sapiens with 21 samples.

Results

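The clustered histone genes encode the replication-dependent H1, H2A, H2B, H3 and H4 proteins, and 40 of the 16553 genes in the count table belong to them. Members were taken by symbol: H1-1 to H1-6 by their number, and any H2AC, H2BC, H3C or H4C symbol followed by a number. They were 3 H1, 10 H2A, 12 H2B, 7 H3 and 8 H4 genes, 28 on chromosome 6 and 12 on chromosome 1. RefSeq lists 69 such genes, and the others were not analysed here. Their RNA was followed in AU565, a wild type epithelial breast cancer line with amplified ERBB2, across 7 groups of 3 libraries that differ in culture form and in exposure to trastuzumab, the therapeutic antibody against HER2. Aggregates were grown in liquid overlay with 5% matrigel. Primed and treated aggregates came from monolayer cells given 20 µg/ml trastuzumab for 24 h, were incubated as aggregates for 96 h and then received 50 µg/ml for 24 h. Treated aggregates had the 96 h incubation and the later 50 µg/ml exposure without the earlier one. Primed aggregates had the earlier 20 µg/ml exposure and the 96 h incubation without the later one, and untreated aggregates had the 96 h incubation alone. Primed monolayers had 20 µg/ml for 24 h and then 96 h of incubation, acutely exposed monolayers had 20 µg/ml for 24 h, and untreated monolayers had no antibody. The labels name no second cell line or clone, and they do not say that replicates were separate cultures, and p-values here therefore rest on spread among libraries that may be technical.

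Histone proteins package DNA, with H2A, H2B, H3 and H4 forming the nucleosome core and H1 binding the linker. The clustered genes are transcribed mainly in S phase, under the coactivator NPAT, and most of their mRNAs end in a conserved stem-loop, bound by SLBP, in place of a poly(A) tail. Some of them are known also to give polyadenylated transcripts, read through the stem-loop to a downstream poly(A) signal, in differentiated or non-dividing cells. Histone genes that lie outside the clusters, such as H2AX and H2AZ1, were listed here as replication-independent. Whether each of them is expressed apart from S phase was not tested.

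The stem-loops of 8 members are shown because the later results turn on these genes, and because the stem-loop is the end of the transcript without a tail. They were read from GENCODE v29 transcripts on GRCh38, 5′ to 3′, with the 16 bases of the stem-loop in capitals and 5 bases on each side in lower case.
H4C8 (chr6:26285131-26285146, minus strand): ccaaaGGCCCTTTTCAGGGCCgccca
H4C14 (chr1:149833032-149833047, plus strand): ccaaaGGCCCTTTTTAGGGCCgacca
H2AC6 (chr6:26124669-26124684, plus strand): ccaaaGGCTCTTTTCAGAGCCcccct
H2AC25 (chr1:228457369-228457384, minus strand): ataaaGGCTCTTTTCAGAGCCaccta
H2AC18 (chr1:149842223-149842238, minus strand): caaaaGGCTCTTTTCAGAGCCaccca
H2BC5 (chr6:26158587-26158602, plus strand): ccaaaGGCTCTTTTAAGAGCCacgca
H2BC9 (chr6:26252055-26252070, plus strand): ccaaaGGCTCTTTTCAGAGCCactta
H3C8 (chr6:26270923-26270938, minus strand): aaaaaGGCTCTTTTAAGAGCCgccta
The motif searched was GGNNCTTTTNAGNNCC on the transcript strand, and 27 of the 40 members held it in an annotated transcript. In the other 13 these letters were not in the annotated transcripts, among them H2BC12 and H1-2. The longest GENCODE v29 transcript was 381 bases in H2BC12 and 642 bases in H1-2. The RefSeq span of H2BC12 is longer than that transcript and overlaps H4C9. Sequence past the annotated ends was not searched, so these 13 cannot be said to lack a stem-loop. The core was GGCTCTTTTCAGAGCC in 16 members, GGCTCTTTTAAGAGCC in 4, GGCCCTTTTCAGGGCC in 3, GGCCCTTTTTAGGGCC in 3 and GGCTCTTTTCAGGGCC in 1. For 20 of the 27 members the annotation ran 100 or more bases past the stem-loop, by 1655 bases in H4C8, 1640 in H2BC9, 1128 in H2AC6 and 390 in H2AC25, but by 35 in H2AC18 and 39 in H2BC5. Annotated sequence past the stem-loop was found in members of each direction of change: among those tested between untreated aggregates and untreated monolayers, 3 of the 4 higher, 7 of the 9 lower and 9 of the 12 that did not pass ran 100 or more bases past it.

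Promoters of 3 members are shown, H2BC12 and H2BC9 as H2B genes that differed in opposite directions in aggregates and H4C8 as the member with the largest rise there. Each runs from 250 bases before to 50 bases after the RefSeq start on GRCh38.p14, 5′ to 3′ in the direction of transcription. Capitals mark the letters TATAAA of a TATA box, a CCAAT box and the octamer ATTTGCAT, each on either strand, and overlapping matches merge into a run.
H2BC12 (chr6:27146806-27147105, minus strand): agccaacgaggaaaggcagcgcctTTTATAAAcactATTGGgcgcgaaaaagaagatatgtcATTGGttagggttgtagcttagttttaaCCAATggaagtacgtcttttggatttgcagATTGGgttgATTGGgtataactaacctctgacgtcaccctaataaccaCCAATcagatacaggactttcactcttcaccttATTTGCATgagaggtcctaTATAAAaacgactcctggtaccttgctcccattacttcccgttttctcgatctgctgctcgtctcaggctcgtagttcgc
H2BC9 (chr6:26251364-26251663, plus strand): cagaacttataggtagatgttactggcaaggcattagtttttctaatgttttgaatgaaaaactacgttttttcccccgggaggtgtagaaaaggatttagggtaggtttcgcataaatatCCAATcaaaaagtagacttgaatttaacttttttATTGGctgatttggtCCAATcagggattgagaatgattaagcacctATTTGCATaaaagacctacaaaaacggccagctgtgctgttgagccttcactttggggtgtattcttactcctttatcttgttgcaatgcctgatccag
H4C8 (chr6:26285485-26285784, minus strand): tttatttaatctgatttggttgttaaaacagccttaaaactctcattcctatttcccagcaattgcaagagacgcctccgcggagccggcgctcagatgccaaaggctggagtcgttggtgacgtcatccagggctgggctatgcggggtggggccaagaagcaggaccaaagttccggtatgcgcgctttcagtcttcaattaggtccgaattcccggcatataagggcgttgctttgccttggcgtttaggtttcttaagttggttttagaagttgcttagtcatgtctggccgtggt
H2BC12 held the octamer from position -49 and TATAAA from position -30, counted from the start site, and H2BC9 held the octamer from -49 with CCAAT from -129 and -80. None of these letters was in the H4C8 window. RefSeq held a promoter for 38 of the 40 members. On either strand, TATAAA was in 63.2% of them and in 12% of all 27305 promoters, CCAAT in 84.2% of them and in 35.7% of all, and the octamer in 34.2% of them and in 1.8% of all. The octamer was in 8 of 12 H2B and 5 of 10 H2A promoters and in 0 of 7 H4 promoters, while CCAAT was in each of the 12 H2B promoters and in 1 of 7 H4 promoters. In the 5 H2A promoters the octamer was on the opposite strand, from -208 to -130. Windows of neighbouring genes overlap, and 1 site can be counted in 2 promoters. The octamer of H2AC11 (from -208) and that of H2BC11 (from -47) are such a site. Between untreated aggregates and untreated monolayers, the octamer was in 2 of 6 higher and 7 of 13 lower members with a promoter. It was in 3 of 16 that did not pass. These matches describe letters and do not show binding.

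Libraries held 15005070 to 26921113 counts, of which the members took 1610 to 4519, or 0.0103 to 0.0217%. Levels are given as CPM, counts scaled per library size after TMM normalization, and they carry no correction for gene length. In each library 12 to 26 of the 40 members were under 1 CPM and 1 to 7 reached 10 CPM. The 6 members known to give polyadenylated transcripts (H1-2, H2AC6, H2BC4, H2BC5, H2BC12 and H2BC21) held 52.8 to 68.6% of member counts, and H2BC12 by itself 28.95 to 38.7%. The labels give total RNA and a TruSeq library without saying whether poly(A) RNA was selected, so these levels cannot be read as the amount of stem-loop mRNA. Other RNAs without a poly(A) tail, chosen after the data were seen, were also measured, and their levels differed widely. RN7SK was at 0.0685 to 6.62 CPM, RMRP at 0 to 0.683, RPPH1 at 0.205 to 3.07 and SCARNA2 at 0.126 to 1.21. RN7SL1 was at 13.03 to 311.6 CPM and RN7SL2 at 10.3 to 339.1 CPM. Of the markers of the line, ERBB2 was at 5767 to 10033 CPM and the luminal keratins KRT8, KRT18 and KRT19 were abundant. The epithelial cadherin CDH1 was low, at 0.0449 to 3.05 CPM. Transcripts of other tissues divided the libraries into 2 sets. The 9 libraries of primed and treated aggregates, treated aggregates and primed monolayers had the synaptic protein SNAP25 at 4.36 to 17.3 CPM, against 0 to 0.507 CPM in the other 12, and those 12 had the matrix protein POSTN at 10.8 to 28.9 CPM, against 0 to 0.138 CPM. Group means of CDH1 differed between the sets too, at 0.153 to 0.442 CPM in the groups with SNAP25 and 1.02 to 2.18 CPM in those with POSTN. In a comparison across these sets, set and treatment cannot be told apart. MYH7, a heart muscle myosin, reached 20.6 to 87.4 CPM in 6 libraries, 2 each of untreated aggregates, acutely exposed monolayers and untreated monolayers, and results were also computed without these 6. The part of these transcripts in the member results was not tested.

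The summed level of the 40 members was highest in primed and in untreated aggregates and lowest in primed monolayers. It was 168.7, 171.1 and 166.3 CPM in the libraries of primed and treated aggregates, 158.3, 150.7 and 165.4 in treated aggregates, 221.8, 201.5 and 196.5 in primed aggregates and 196.0, 204.5 and 212.9 in untreated aggregates. Among monolayers it was 110.3, 105.1 and 104.8 CPM in primed, 139.2, 146.5 and 149.6 in acutely exposed and 158.0, 168.1 and 162.2 in untreated ones. Treated aggregates overlapped untreated monolayers, as did primed and treated aggregates, and primed overlapped untreated aggregates. The sum rests on few genes, so the 6 members known to give polyadenylated transcripts were set apart from the other 34. The list of 6 was chosen with earlier results of these data known. Annotation past the stem-loop did not follow it. Among the 34 it ran 1655 bases in H4C8 and 1640 in H2BC9, and among the 6 it ran 1128 in H2AC6 and 39 in H2BC5. The split therefore cannot be read as transcripts with and without a poly(A) tail. The 6 summed to 112.1 ± 1.70 CPM in primed and treated, 106.5 ± 7.15 in treated, 137.9 ± 9.97 in primed and 133.7 ± 7.24 in untreated aggregates (SD, n = 3 each). They summed to 61.4 ± 1.45 CPM in primed, 80.7 ± 3.31 in acutely exposed and 88.6 ± 4.12 in untreated monolayers. The other 34 summed to 56.7 ± 1.58, 51.7 ± 1.73, 68.7 ± 3.50 and 70.8 ± 1.60 CPM in primed and treated, treated, primed and untreated aggregates. In monolayers they summed to 45.3 ± 3.36 CPM in primed, 64.4 ± 2.02 in acutely exposed and 74.1 ± 2.72 in untreated ones. Every aggregate library was above every monolayer library for the 6, while untreated monolayers had the highest mean for the other 34. For these 34 the libraries of untreated monolayers and untreated aggregates overlapped. In bulk RNA, fewer S-phase cells and less histone RNA per cell cannot be told apart. Sums were compared without a test. RN7SL1, an RNA without a poly(A) tail, differed between groups as well. It was at 79.07 to 192.7 CPM in primed and treated, 154 to 205 in treated, 258 to 311 in primed and 257 to 312 in untreated aggregates, and at 13.03 to 29.2 CPM in primed, 188 to 206 in acutely exposed and 194 to 216 in untreated monolayers. Its part in the member results was not tested.

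**Figure D1:**
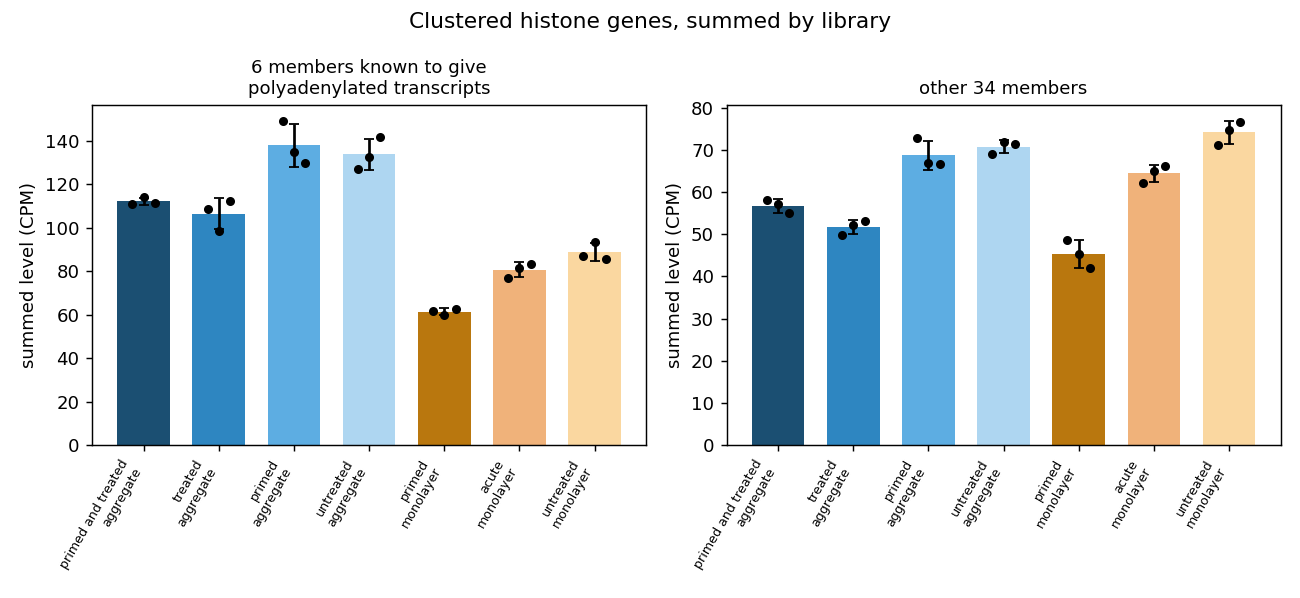
Summed CPM of the 6 members known to give polyadenylated transcripts (left) and of the other 34 (right), with 3 points for the libraries of a group, bars for their mean and error bars for the SD. All aggregate libraries lie above all monolayer libraries on the left. On the right untreated monolayers have the highest mean, 74.1 CPM, and their libraries overlap those of untreated aggregates.

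By class, H2B took the largest part of the member counts, at 51.6 to 113 CPM per library, followed by H2A at 29.5 to 50.9. H1 summed to 8.81 to 31.9 CPM, H4 to 9.004 to 25.1 and H3 to 2.94 to 8.58. Per-gene levels ran from members at 0 in some libraries to H2BC12 at 39.1 to 83.5 CPM. Several members are near-identical copies whose reads the counting may have split in ways the labels do not give. All 450 stretches of 100 bases in the H2AC18 transcript also occur in H2AC19, and the same held for 1557 of 1557 stretches between H3C14 and H3C15 and 1448 of 1448 between H4C14 and H4C15. Values of these pairs are uncertain for that reason. The RefSeq spans of H2BC12 and H4C9 overlap, as do those of H4C15 with H2AC19 and H3C15 and of H2BC18 with FCGR1A.

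**Figure D2:**
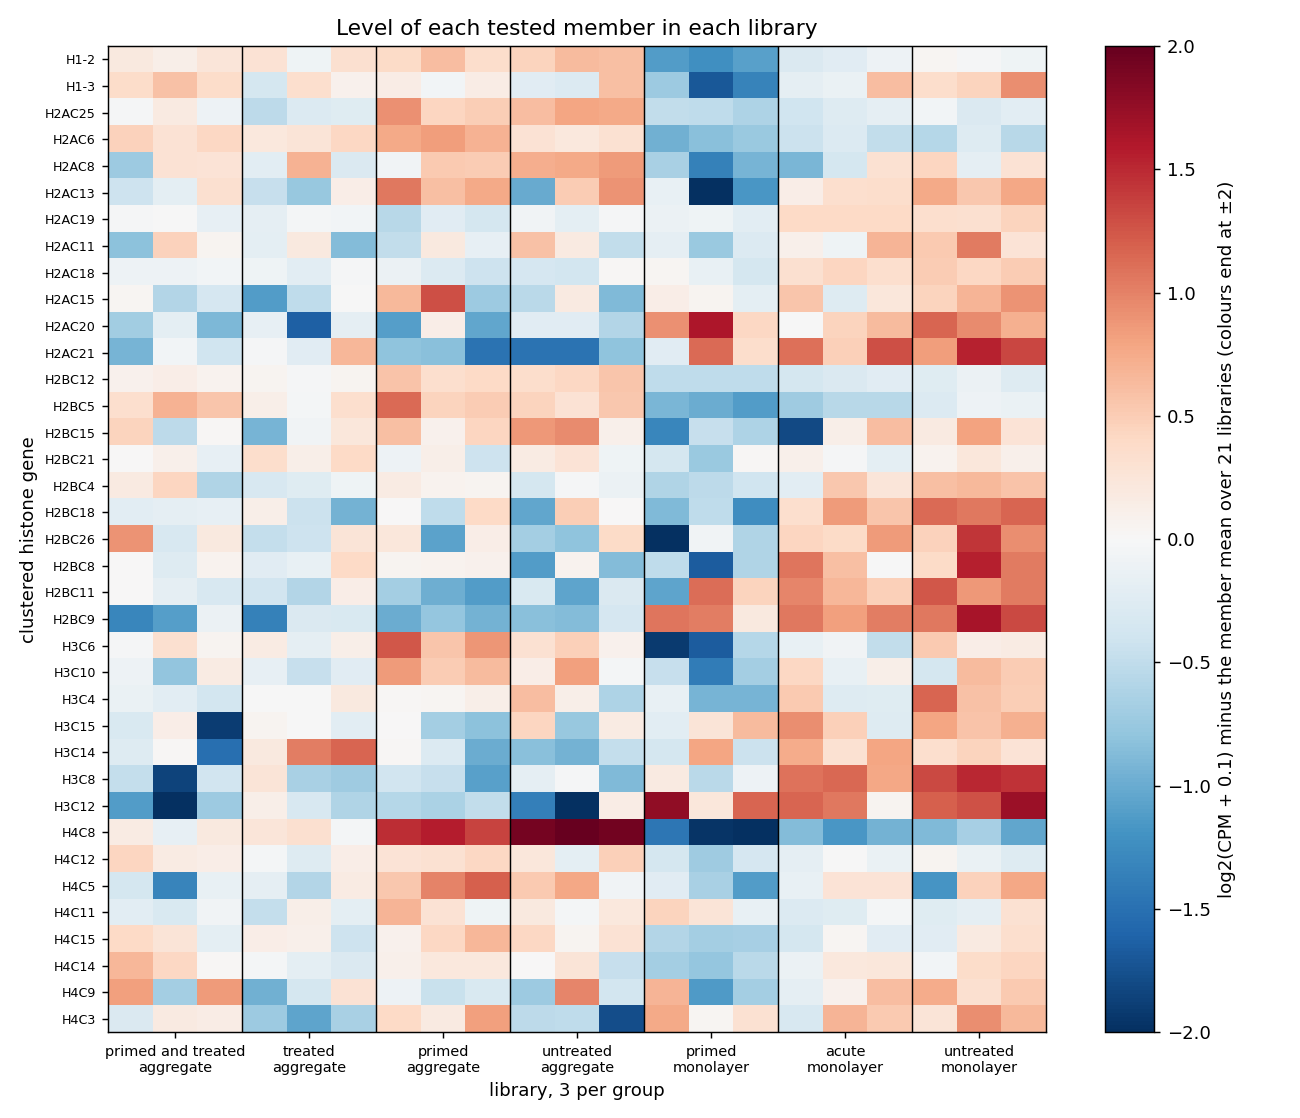
Each of the 37 tested members (rows, by class) in each of the 21 libraries (columns, 3 per group), as log2(CPM + 0.1) minus the member's mean over the libraries, with colours ending at ±2. H4C8 is highest in untreated aggregates, and most members are below their own mean in primed monolayers.

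The comparison of untreated aggregates with untreated monolayers sets aggregate against monolayer culture without trastuzumab. These groups differ also in the 5% matrigel and in time in culture, which is 96 h for the aggregates and not given for the monolayers, and the form of culture cannot be told apart from these. H2BC12 and H1-2, the members with the highest mean CPM, rose, and H2AC18 and H2AC19, which reached 10 CPM or more in untreated monolayers, fell. Of the 37 members tested, 6 rose, 15 fell and 16 did not pass in edgeR's quasi-likelihood test at a Benjamini-Hochberg adjusted p under 0.05 over 15969 genes, where 64.1% of all genes passed (32.9% higher and 31.1% lower). The share of members that passed, 21 of 37, was thus near the background. The median log2 fold change was -0.47 over the members and 0.01 over all genes tested. Both directions occurred within H2A, H2B and H4.

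H4C8, an H4 gene (Entrez 8365, chr6:26285126-26285534), had 10.7, 12.4 and 10.9 CPM in untreated aggregates, against 1.46, 1.72 and 1.29 CPM in untreated monolayers. The groups were far apart (log2 fold change 2.91, SE 0.17, edgeR adjusted p = 2.35e-16), the largest rise of any member in this comparison. H2BC12 (Entrez 85236, chr6:27138293-27146858), an H2B gene known to give a polyadenylated transcript, had 71.3, 74.3 and 82.4 CPM in untreated aggregates and 47.5, 51.7 and 47.0 CPM in untreated monolayers. It rose by 0.64 on the log2 scale (SE 0.06, edgeR adjusted p = 9.17e-11). H1-2, the linker histone of the group, had 27.3, 31.1 and 30.4 CPM in untreated aggregates, against 20.4, 19.7 and 18.8 CPM in untreated monolayers. All 3 aggregate libraries were above all 3 monolayer libraries (0.60, SE 0.09, edgeR adjusted p = 9.81e-07). The H2A genes H2AC25 (log2 fold change 0.92) and H2AC6 (0.72) and the H2B gene H2BC5 (0.60) rose too, with edgeR adjusted p of 6.44e-08, 1.59e-06 and 0.000447. H2BC21, another member of the polyadenylated group, averaged 4.63 ± 0.597 CPM in untreated aggregates and 4.67 ± 0.289 CPM in untreated monolayers. All 6 rises held in each of 8 alternatives and whichever of 6 libraries was left out.

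H2AC18 and its copy H2AC19, core H2A genes, were lower in untreated aggregates. H2AC18 had 8.23, 8.07 and 10.5 CPM there, against 14.8, 13.8 and 14.8 CPM in untreated monolayers (log2 fold change -0.70, SE 0.11, edgeR adjusted p = 1.87e-06), and H2AC19 changed by -0.47 (SE 0.10). The aggregate libraries lay below the monolayer libraries for both genes. H2BC9, an H2B gene, had 0.47, 0.46 and 0.714 CPM in untreated aggregates, against 2.02, 3.12 and 2.45 CPM in untreated monolayers (log2 fold change -2.22, SE 0.35, edgeR adjusted p = 1.19e-06). H3C8 (-1.997), H2BC11 (-1.82), H2BC8 (-1.81), H4C3 (-1.61) and H2AC20 (-1.47) were the next falls among members of 1 CPM or more in a group, and each was under 1 CPM in untreated aggregates. The other 7 that passed were H2AC15, H2AC21, H2BC18, H2BC26, H2BC4, H3C12 and H3C14. H2AC21 had 1 count over the untreated aggregates and 38 over the untreated monolayers, a ratio of 0.0321 with an exact 95% counting interval of 0.000791 to 0.19.

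Of the 6 members known to give polyadenylated transcripts 4 rose and 1, H2BC4, fell, and of the other 31 tested 2 rose and 14 fell. Leaving out 1 library ended the calls of H2AC15 (untreated aggregate 1 or 3, untreated monolayer 2 or 3), H2BC26 (untreated aggregate 1 or 2, untreated monolayer 2), H2BC4 (untreated aggregate 1, untreated monolayer 2) and H3C14 (untreated aggregate 1 or 2, untreated monolayer 1 or 2). The log2 fold changes without them were -1.29 to -1.002, -1.37 to -1.24, -0.81 to -0.74 and -1.57 to -1.39. In DESeq2 the calls of H2AC15 (-1.32, adjusted p = 0.0793) and H3C14 (-1.61, adjusted p = 0.0583) were lost, and with no filter on low counts that of H2AC15 (-1.28, adjusted p = 0.0518). Without the 6 libraries with MYH7, which leaves 1 library in each of these groups, 7 members passed as lower. The 9 calls then lost were those of H2AC15, H2AC20, H2AC21, H2BC11, H2BC18, H2BC26, H2BC4, H3C12 and H3C14. The mitochondrial rRNA share of counts was 2.66 ± 0.136% in untreated aggregates and 1.06 ± 0.119% in untreated monolayers, and its part in these results was not tested.

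Genes that act with the clustered histones mostly fell in untreated aggregates. Of 39 DNA replication genes 36 fell and 1 rose, with the replication initiator CDC6 at -1.23 and the sliding clamp PCNA at -0.37 on the log2 scale, and all 20 mitosis genes fell, with the proliferation marker MKI67 at -2.57. Among 27 histone chaperones 19 fell and 3 rose: the centromere chaperone HJURP changed by -2.57 and the FACT subunit SSRP1 by 1.05. Of 26 genes for histone transcription and mRNA processing 11 fell and 9 rose. SLBP rose, with 60.2, 52.0 and 56.9 CPM in untreated aggregates against 44.3, 45.4 and 41.3 CPM in untreated monolayers (log2 fold change 0.37, SE 0.07, edgeR adjusted p = 4.91e-05). NPAT fell by 0.63 on the log2 scale (edgeR adjusted p = 1.45e-08). Of 12 replication-independent histone genes 5 fell, with H2AZ1 at -0.53, and 2 rose.

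**Figure D3:**
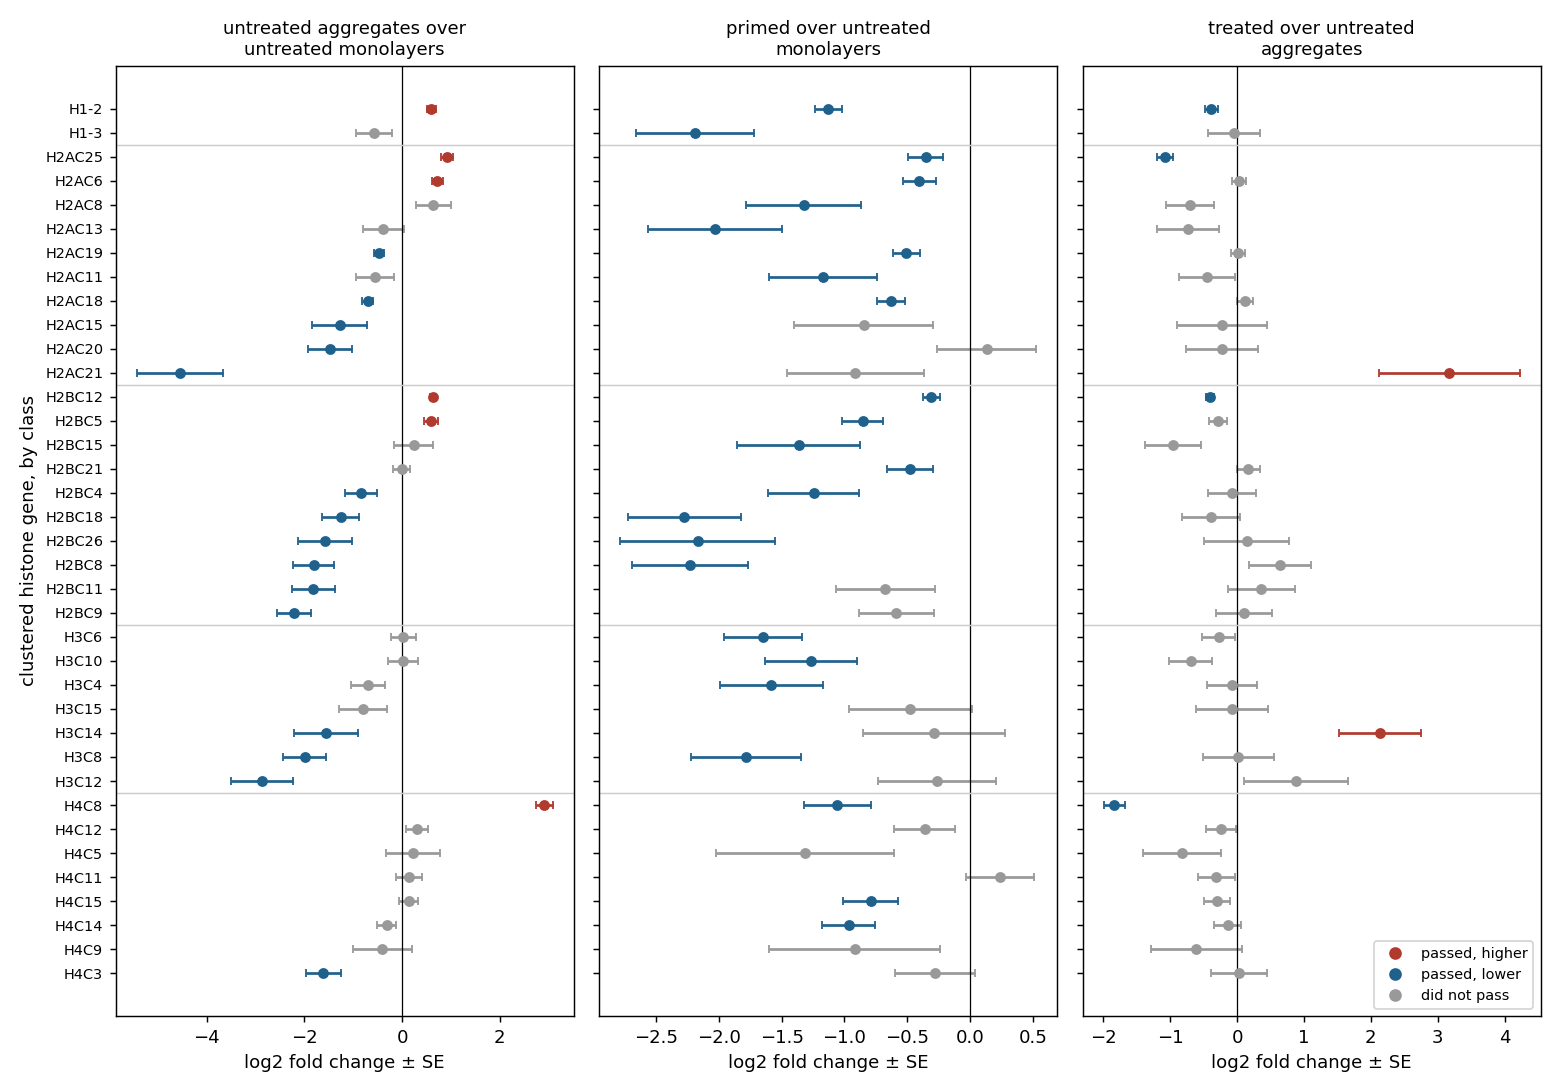
Log2 fold change of each tested member with its SE, for untreated aggregates over untreated monolayers (left), primed over untreated monolayers (middle) and treated over untreated aggregates (right), with scales that differ between panels. Members are grouped by class and coloured by call: 6 rose and 15 fell on the left, 24 fell in the middle, and 2 rose and 4 fell on the right.

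Acutely exposed monolayers, set against untreated monolayers, show what 24 h of trastuzumab changed. Of the 37 members 1 fell, 0 rose and 36 did not pass, where 8.91% of all genes fell, 11.3% rose and 20.2% passed in either direction. H2BC5 had 5.55, 6.21 and 6.21 CPM in acutely exposed monolayers, against 7.53, 8.50 and 8.32 CPM in untreated monolayers (log2 fold change -0.44, SE 0.15, edgeR adjusted p = 0.0364). All 3 exposed libraries were below the untreated ones. The call was lost when any of 5 of the 6 libraries was left out, all but untreated monolayer 1, with log2 fold changes of -0.47 to -0.40. It was also lost without the 6 libraries with MYH7 (-0.58, edgeR adjusted p = 0.343) and in limma voom. The estimates of 33 of the 37 members were negative, with a median of -0.35 against -0.02 over all genes, and the groups did not overlap in 9 members, each lower in acutely exposed monolayers; over all genes 18.9% were lower in this way. The unadjusted p was under 0.05 for 3 members, all lower, and for 0 in the other direction; DESeq2 and limma voom also called 0 higher. H2BC12 averaged 45.8 ± 2.11 CPM in acutely exposed and 48.7 ± 2.59 CPM in untreated monolayers (log2 fold change -0.09, SE 0.06, edgeR adjusted p = 0.366).

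Among companion genes, 16 of 39 replication genes and 15 of 20 mitosis genes fell and 0 of either rose, with PCNA at -0.24 (edgeR adjusted p = 0.00928) and the mitotic kinase AURKA at -0.39 (edgeR adjusted p = 1.43e-05). SLBP changed by 0.09 (SE 0.07) and NPAT by -0.06 (SE 0.08), and neither passed. Of the 26 processing genes 2 rose and 3 fell, of the 27 chaperones 3 rose and 2 fell, and of the 12 replication-independent histones 1, H2AZ1, fell.

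Primed monolayers were set against untreated monolayers to see what was present 96 h after the exposure. Here 24 of the 37 members fell, 0 rose and 13 did not pass, where 31.6% of all genes fell, 33.7% rose and 65.3% passed in either direction. Members of all 5 classes fell, and all 6 members known to give polyadenylated transcripts were among them. The median log2 fold change was -0.91 over the members, 35 of 37 estimates were negative, and the median over all genes was 0.01. DESeq2 and limma voom also called 0 higher, as did an unadjusted p under 0.05.

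H1-2 had 9.11, 8.43 and 9.36 CPM in primed monolayers, against 20.4, 19.7 and 18.8 CPM in untreated monolayers. The primed libraries were all below the untreated ones (log2 fold change -1.13, SE 0.11, edgeR adjusted p = 4.6e-11). H1-3, a second linker histone, averaged 0.22 ± 0.111 CPM in primed and 1.01 ± 0.247 CPM in untreated monolayers (-2.19, SE 0.47, edgeR adjusted p = 0.000126). H2BC12 had 39.5, 39.1 and 39.3 CPM in primed monolayers, against 47.5, 51.7 and 47.0 CPM in untreated monolayers. The change was small and the groups did not overlap (-0.31, SE 0.07, edgeR adjusted p = 0.000143). H2BC18 averaged 0.282 ± 0.097 CPM in primed and 1.39 ± 0.0553 CPM in untreated monolayers, with the largest fall by log2 fold change (-2.27, SE 0.45). Next among members of 1 CPM or more in a group were H2BC8 (-2.23), H2AC13 (-2.03), H3C8 (-1.78) and H3C6 (-1.65), all H2A, H2B and H3 genes.

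H2AC18 had 10.6, 9.39 and 8.09 CPM in primed monolayers, against 14.8, 13.8 and 14.8 CPM in untreated monolayers (log2 fold change -0.63, SE 0.11, edgeR adjusted p = 1.22e-05), and H2AC19 changed by -0.51 (SE 0.11). H4C8 averaged 0.722 ± 0.208 CPM in primed and 1.49 ± 0.213 CPM in untreated monolayers (-1.06, SE 0.27), and the copies H4C14 and H4C15 changed by -0.97 and -0.79. Not all low members fell: H2BC9 averaged 1.70 ± 0.545 CPM in primed and 2.53 ± 0.554 CPM in untreated monolayers (-0.59, SE 0.30, edgeR adjusted p = 0.0853) and did not pass. The 2 positive estimates, H4C11 and H2AC20, did not pass either. Leaving out 1 library ended 6 calls, those of H2AC11 (untreated 2 or primed 2, log2 fold change -0.99 to -0.88), H2AC25 (untreated 1 or primed 3, -0.31 to -0.29, and in limma voom, -0.34, adjusted p = 0.0543), H2AC6 (untreated 2, -0.29), H2AC8 (primed 2, -1.12), H2BC15 (untreated 2 or primed 1, -1.12 to -1.11) and H2BC21 (untreated 2, primed 1 or primed 2, -0.46 to -0.30). Without the 6 libraries with MYH7 these calls, apart from that of H2AC8, were lost, and so was that of H4C8 (-0.85, edgeR adjusted p = 0.0676). These groups lie in different sets of libraries by the transcripts of other tissues, so the set and priming cannot be told apart, nor can the 96 h of further culture. The mitochondrial rRNA share was 0.801 ± 0.01% in primed and 1.06 ± 0.119% in untreated monolayers, and its part was not tested.

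The replication genes went the other way. Of 39 replication genes 35 rose and 1 fell, and their summed level was 3164 ± 13.1 CPM in primed and 1738 ± 53.8 CPM in untreated monolayers. PCNA had 138, 146 and 151 CPM in primed monolayers, against 58.4, 56.9 and 60.1 CPM in untreated monolayers (log2 fold change 1.31, SE 0.07, edgeR adjusted p = 1.92e-18). The helicase subunit MCM2 rose by 1.32 and MKI67 by 0.65 on the log2 scale, and 14 of 20 mitosis genes rose and 1 fell. SLBP had 98.8, 88.3 and 88.6 CPM in primed monolayers, against 44.3, 45.4 and 41.3 CPM in untreated monolayers, and all primed libraries were far above (1.07, SE 0.07, edgeR adjusted p = 5.73e-15). NPAT fell by 0.45 on the log2 scale (SE 0.08, edgeR adjusted p = 8.2e-06). Of 12 replication-independent histones 8 rose and 1 fell, with H2AX at 1.25 and H2AZ1 at 0.47, of 27 chaperones 16 rose and 4 fell, and of 26 processing genes 12 rose and 5 fell. Of 6 RNAs without a poly(A) tail, also chosen after the data were seen, RN7SL1 and RN7SL2 had lower levels in primed monolayers, and the other 4, all low, had higher means. RN7SL1, the signal recognition particle RNA, was at 13.03 to 29.2 CPM in primed and 194 to 216 CPM in untreated monolayers, and RN7SL2 at 10.3 to 27.5 CPM in primed and 235 to 308 CPM in untreated monolayers. RN7SK averaged 0.659 CPM in primed and 0.518 CPM in untreated monolayers, RMRP 0.321 CPM in primed and 0.101 CPM in untreated, RPPH1 0.768 CPM in primed and 0.676 CPM in untreated, and SCARNA2 0.498 CPM in primed and 0.398 CPM in untreated ones. The part of these RNAs in the member result was not tested.

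**Figure D4:**
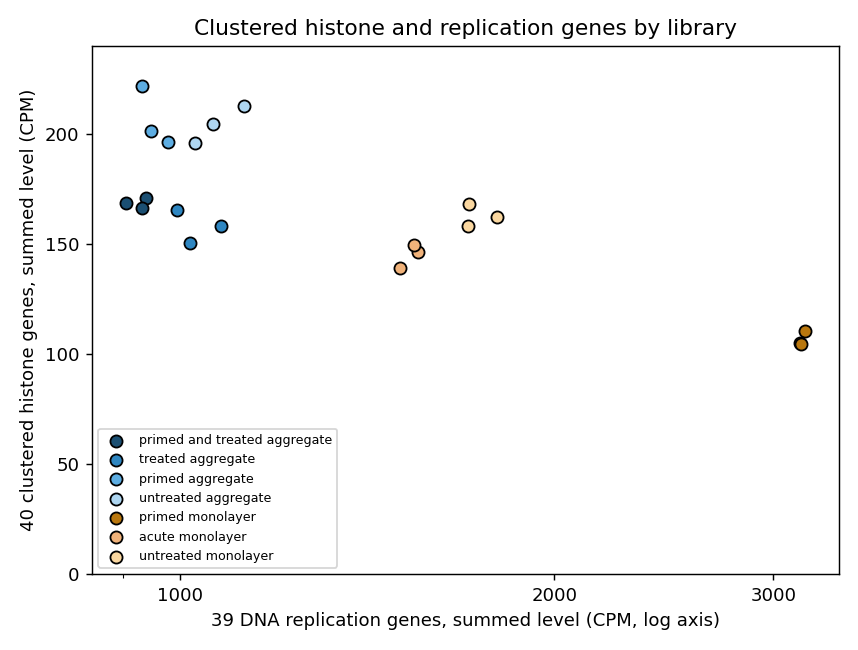
Summed CPM of the 40 clustered histone genes (vertical) against that of 39 DNA replication genes (horizontal, log axis), 1 point per library. Primed monolayers lie at the lower right, with the lowest histone sums, 104.8 to 110.3 CPM, and the highest replication sums.

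Whether exposure before aggregation left a difference was asked by setting primed against untreated aggregates. Here 2 of the 37 members rose, 1 fell and 34 did not pass, where 11.5% of all genes rose, 9.66% fell and 21.2% passed. H2AC6, an H2A gene known to give a polyadenylated transcript, had 14.6, 15.5 and 14.03 CPM in primed aggregates, against 10.6, 10.0 and 10.7 CPM in untreated aggregates. The groups did not overlap (log2 fold change 0.49, SE 0.11, edgeR adjusted p = 0.000991). H4C3, an H4 gene, had 1.42, 1.21 and 1.96 CPM in primed aggregates, against 0.705, 0.715 and 0.238 CPM in untreated aggregates (1.45, SE 0.37, edgeR adjusted p = 0.00412). H4C8 had 7.93, 8.43 and 7.21 CPM in primed aggregates, against 10.7, 12.4 and 10.9 CPM in untreated aggregates, and so 1 H4 gene fell while another rose (-0.53, SE 0.15, edgeR adjusted p = 0.00779). Without untreated aggregate 2 the H4C8 call was lost (-0.46, edgeR adjusted p = 0.0528), and without the 6 libraries with MYH7 those of H2AC6 (0.46) and H4C8 (-0.47) were lost. H2BC12 averaged 75.9 ± 6.68 CPM in primed and 76.0 ± 5.69 CPM in untreated aggregates (edgeR adjusted p = 0.988).

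Among companions, 14 of 39 replication genes fell and 0 rose, with PCNA at -0.32, and 5 of 20 mitosis genes rose and 0 fell. SLBP fell by 0.28 on the log2 scale (edgeR adjusted p = 0.00485) and NPAT changed by 0.16 (edgeR adjusted p = 0.165). Of the 26 processing genes 4 rose and 5 fell, of the 27 chaperones 4 rose and 1 fell, and of the 12 replication-independent histones 1, H2AX, fell.

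What 50 µg/ml for 24 h changed in 3D was asked by setting treated against untreated aggregates. The treated aggregates were also 24 h older and lie in the other set of libraries, neither of which can be told apart from treatment. Here 4 of the 37 members fell, 2 rose and 31 did not pass, where 17.9% of all genes fell, 18.8% rose and 36.7% passed. H2BC12 and H1-2, the members with the highest mean CPM, were among the falls. H4C8 had 3.31, 3.48 and 2.69 CPM in treated aggregates, against 10.7, 12.4 and 10.9 CPM in untreated aggregates (log2 fold change -1.84, SE 0.16, edgeR adjusted p = 2.72e-11). H2AC25 had 6.11, 7.24 and 7.47 CPM in treated aggregates, against 13.6, 15.3 and 15.04 CPM in untreated aggregates (-1.08, SE 0.12, edgeR adjusted p = 2.13e-08). No treated library overlapped an untreated one for either gene. In all, 6 members lay wholly below in treated aggregates and 2 wholly above, where 22.8% of all genes lay wholly below and 23.6% wholly above. Mitochondrial rRNA took 1.63 ± 0.097% of counts in treated and 2.66 ± 0.136% in untreated aggregates, and its part in these results was not tested.

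H2BC12 had 58.2, 55.3 and 58.0 CPM in treated aggregates, against 71.3, 74.3 and 82.4 CPM in untreated aggregates (log2 fold change -0.41, SE 0.06, edgeR adjusted p = 3.17e-06). H1-2 had 24.4, 18.7 and 24.8 CPM in treated aggregates, against 27.3, 31.1 and 30.4 CPM in untreated aggregates (-0.38, SE 0.09, edgeR adjusted p = 0.00109). These 4 falls held in each of 8 alternatives and whichever of 6 libraries was left out. H2AC6, which shares the polyadenylated group with H2BC12 and H1-2, averaged 10.7 ± 0.833 CPM in treated and 10.4 ± 0.384 CPM in untreated aggregates and did not pass. The 2 rises, named after their values were seen, were both under 1 CPM. H2AC21 had 15 counts over the treated and 1 over the untreated aggregates, a ratio of 11.7 with an exact 95% counting interval of 1.8 to 492. H3C14 changed by 2.14 (SE 0.61, edgeR adjusted p = 0.00552), while its near-identical copy H3C15 did not pass. The H2AC21 call was lost without treated aggregate 3, untreated aggregate 1 or untreated aggregate 2 (fitted log2 fold changes 2.65 to 2.73), and without the 6 libraries with MYH7 both calls were lost (1.77 and 1.71).

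The mitosis genes rose in treated aggregates, 17 of 20 with 0 falls, MKI67 by 0.74 on the log2 scale, while 1 of 39 replication genes rose and 4 fell. SLBP (-0.06, SE 0.07) and NPAT (0.08, SE 0.08) did not pass. Of the 26 processing genes 2 rose and 7 fell, with the cleavage factor CPSF2 at -0.34. Of 12 replication-independent histones 5 rose and 0 fell, including the linker histone H1-10 (1.22), and 6 of 27 chaperones rose and 6 fell.

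**Figure D5:**
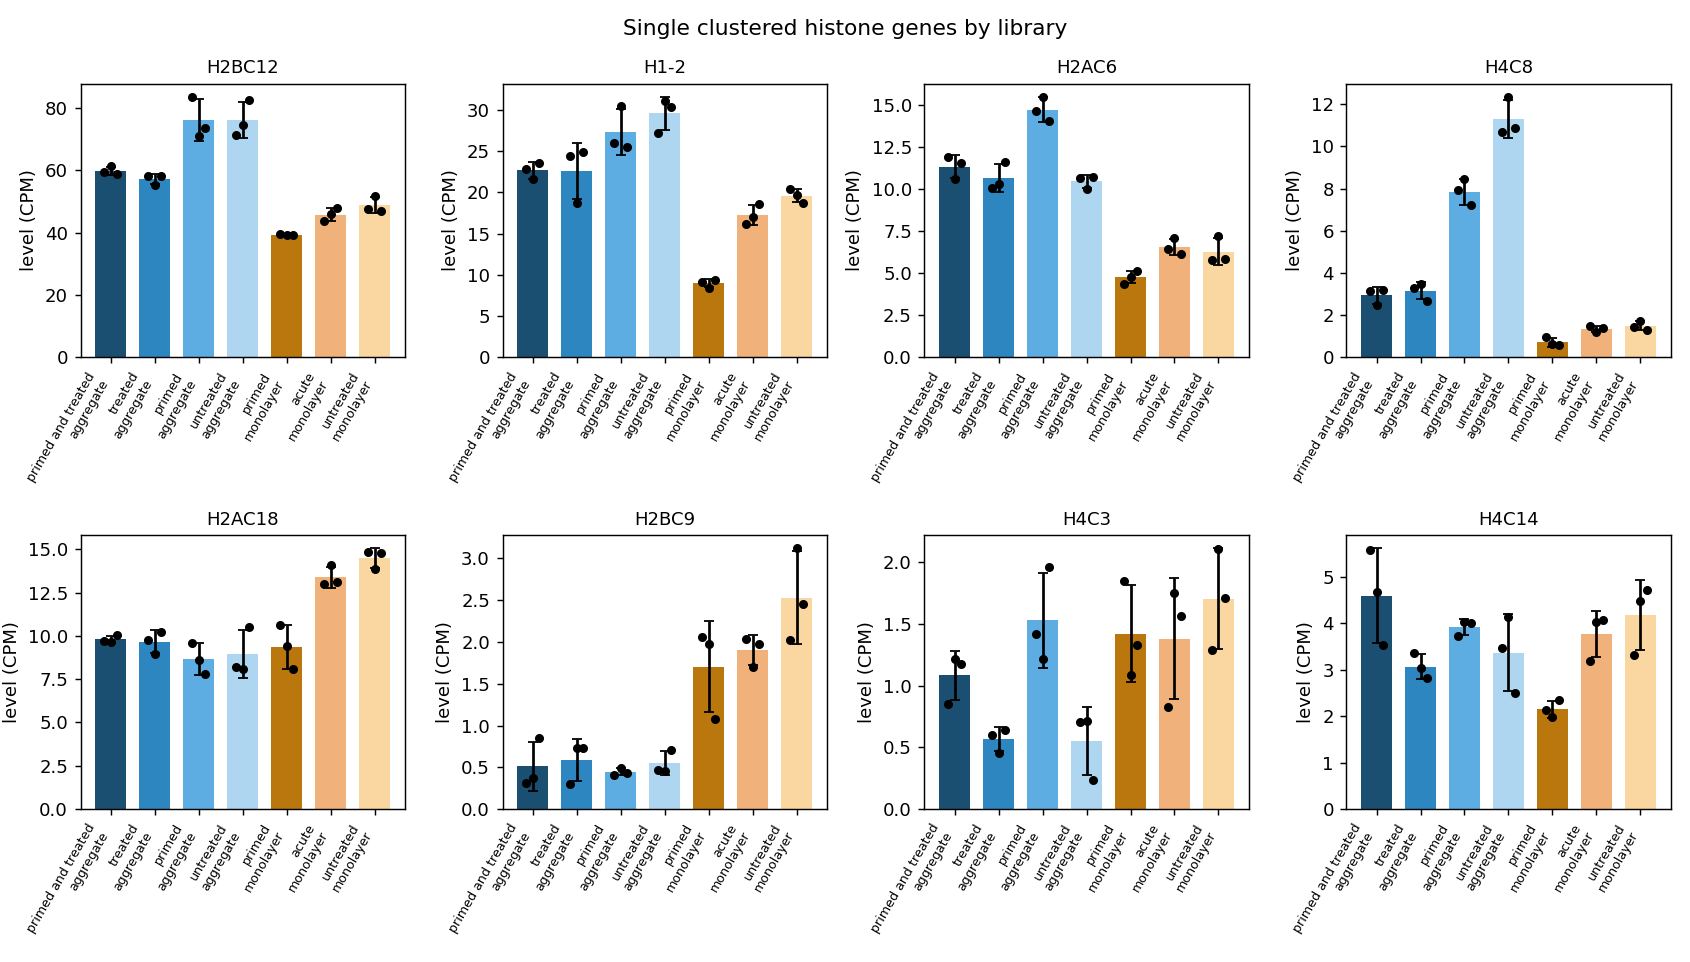
CPM of 8 members in each library, with points for the 3 libraries of a group, bars for the mean and error bars for the SD, and a separate vertical scale for each gene. H4C8 lies between 10.7 and 12.4 CPM in untreated aggregates and between 2.48 and 3.48 CPM in both groups given 50 µg/ml.

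Both exposures together were set against untreated aggregates. The 4 members that fell in treated aggregates were also those that fell here, a shared count that also reflects the shared untreated libraries, and 1 member rose and 32 did not pass, where 17.9% of all genes fell, 17.6% rose and 35.5% passed. In all, 7 members lay wholly below and 1 wholly above, where 22.7% of all genes lay wholly below and 22.5% wholly above. H4C8 had 3.14, 2.48 and 3.20 CPM in primed and treated aggregates, against 10.7, 12.4 and 10.9 CPM in untreated aggregates (log2 fold change -1.94, SE 0.16, edgeR adjusted p = 9.18e-12). H2AC25 (-0.71), H1-2 (-0.38) and H2BC12 (-0.35) also fell. H4C3 had 0.853, 1.22 and 1.18 CPM in primed and treated aggregates, against 0.705, 0.715 and 0.238 CPM in untreated aggregates, and rose (0.95, SE 0.38, edgeR adjusted p = 0.0457). This call was lost in DESeq2 (0.96, adjusted p = 0.0553) and limma voom (1.04, adjusted p = 0.0517), and without primed and treated aggregate 2 or 3 or untreated aggregate 3 (0.61 to 0.88). Of 39 replication genes 2 rose and 18 fell, of 20 mitosis genes 2 rose and 2 fell, and of 26 processing genes 5 rose and 7 fell. Of 27 chaperones 2 rose and 7 fell, and of 12 replication-independent histones 2 rose and 1 fell. As above, age and library set differ between these groups. Mitochondrial rRNA took 2.27 ± 0.124% of counts in primed and treated and 2.66 ± 0.136% in untreated aggregates.

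Primed and treated aggregates were compared with treated aggregates, within 1 set of libraries and at the same age. Mitochondrial rRNA took 2.27 ± 0.124% of counts in primed and treated and 1.63 ± 0.097% in treated aggregates. A single member of the 37 fell, 0 rose and 36 did not pass, where 4.8% of all genes fell, 3.18% rose and 7.98% passed. The fall was H3C14, named after its values were seen and a near copy of H3C15, with 0.224, 0.294 and 0.0368 CPM in primed and treated aggregates, against 0.344, 0.688 and 0.769 CPM in treated aggregates (log2 fold change -1.71, SE 0.53, edgeR adjusted p = 0.04). Leaving out primed and treated aggregate 1 or 3 or treated aggregate 2 or 3 ended the call (-1.87 to -1.18), and DESeq2 called 0 members lower. It was also lost without the 6 libraries with MYH7, none of them in these groups (adjusted p = 0.0656). The unadjusted p was under 0.05 for 4 members in the higher direction, and DESeq2 and limma voom called 0 of them. H4C14 was 1 of these 4, with 5.56, 4.66 and 3.53 CPM in primed and treated aggregates against 3.35, 3.03 and 2.82 CPM in treated aggregates (0.57, SE 0.19, edgeR adjusted p = 0.0513), and its copy H4C15 averaged 4.02 ± 0.834 CPM in primed and treated and 3.45 ± 0.702 CPM in treated aggregates. H4C8 averaged 2.94 ± 0.401 CPM in primed and treated and 3.16 ± 0.417 CPM in treated aggregates (-0.10, SE 0.17). All 20 mitosis genes and 13 of 39 replication genes fell with 0 rises, MKI67 by 0.81 on the log2 scale. SLBP (0.20, edgeR adjusted p = 0.074) did not pass. Of 26 processing genes 1 fell, of 27 chaperones 2 rose and 3 fell, and of 12 replication-independent histones 1 rose and 2 fell.

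Primed and treated aggregates were compared with primed aggregates, to ask what the later exposure changed after priming. Among the 37 members 8 fell, 1 rose and 28 did not pass, where 14.8% of all genes fell, 14.9% rose and 29.8% passed. H4C8 had 3.14, 2.48 and 3.20 CPM in primed and treated aggregates, against 7.93, 8.43 and 7.21 CPM in primed aggregates (log2 fold change -1.41, SE 0.16, edgeR adjusted p = 2.73e-08). H2AC25 (-0.61), H2AC6 (-0.38) and H2BC12 (-0.35, SE 0.06, edgeR adjusted p = 5.89e-05) fell too. The H3 genes H3C10 (-0.91) and H3C6 (-0.83), the H4 gene H4C5 (-1.92) and H1-2 (-0.27) fell. H2AC19 rose (0.31), while its near-identical copy H2AC18 did not pass. Of these, some calls ended when 1 library was left out. They were H1-2 (primed and treated 1 or 2, primed 2, log2 fold change -0.27 to -0.19), H2AC19 (primed and treated 1 or 2, primed 1 or 3, 0.23 to 0.32), H3C10 (primed and treated 1 or 2, primed 1 or 3, -0.95 to -0.66), H3C6 (primed 1, -0.64) and H4C5 (primed and treated 2, primed 3, -1.73 to -1.51). With plain library sizes the H1-2 call was lost (-0.23, adjusted p = 0.0564), and with only the groups compared that of H2AC19 (0.31, adjusted p = 0.0694). Without primed and treated aggregate 2, 5 members were called lower. SLBP rose by 0.43 on the log2 scale (edgeR adjusted p = 2.38e-05), 12 of 20 mitosis genes fell with 0 rises, and of 39 replication genes 1 rose and 3 fell. Of 26 processing genes 2 rose and 3 fell, of 27 chaperones 1 rose and 10 fell, and of 12 replication-independent histones 4 rose and 1 fell. These groups differ in age and library set as well as in the later exposure. Mitochondrial rRNA took 2.27 ± 0.124% of counts in primed and treated and 2.69 ± 0.0768% in primed aggregates.

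Whether priming changed the response to the later exposure was asked by the difference between the priming effect in treated and in untreated aggregates. Of the 37 members 0 passed in either direction, where 5.05% of all genes were higher, 7.42% lower and 12.5% passed. The unadjusted p was under 0.05 for 1 higher and 2 lower members, DESeq2 called 0, and limma voom called 1 lower. The nearest were H2AC25 (0.47, SE 0.17, edgeR adjusted p = 0.072) and H2AC6 (-0.41, SE 0.15, edgeR adjusted p = 0.0724). H4C8, which was lower in groups given the later exposure with and without priming, differed by 0.43 (SE 0.22, edgeR adjusted p = 0.228). Groups with and without the later exposure also differ in age and library set, which cannot be told apart from treatment. Of the companions all 20 mitosis genes were lower, as were 3 of 27 chaperones with 0 higher. Of 26 processing genes 3 were higher and 1 lower, of 39 replication genes 2 were higher and 2 lower, and of 12 replication-independent histones 0 passed. SLBP did pass (0.48, SE 0.10, edgeR adjusted p = 0.00115): it averaged 62.2 ± 3.00 CPM in primed and treated against 54.1 ± 3.08 CPM in treated aggregates, and 46.2 ± 3.97 CPM in primed against 56.4 ± 4.10 CPM in untreated aggregates.

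Primed and treated aggregates were last compared with primed monolayers, which share the earlier exposure and the library set but had no matrigel and no later exposure. The aggregates were also 24 h older. Form of culture, matrigel, age and the later exposure cannot be told apart here. The mitochondrial rRNA share was 2.27 ± 0.124% in primed and treated aggregates and 0.801 ± 0.01% in primed monolayers, and its part was not tested. Here 12 of the 37 members rose, 3 fell and 22 did not pass, where 31.9% of all genes rose, 32.1% fell and 63.9% passed. The median log2 fold change was 0.60 over the members and 0.02 over all genes. H1-2 had 22.9, 21.6 and 23.5 CPM in primed and treated aggregates, against 9.11, 8.43 and 9.36 CPM in primed monolayers (1.34, SE 0.11, edgeR adjusted p = 3.53e-13). H2BC5 had 11.5, 14.8 and 13.5 CPM in primed and treated aggregates, against 4.79, 4.53 and 4.17 CPM in primed monolayers (1.56, SE 0.16, edgeR adjusted p = 1.51e-10). In both genes all aggregate libraries were above the monolayer libraries. H4C8 (2.03), H3C6 (1.48), H2AC6 (1.25), H4C14 (1.08) and H2BC12 (0.60) also rose, with H1-3, H2AC25, H2AC8, H4C12 and H4C15. The H2AC8 call was lost without primed and treated aggregate 2 or 3 or primed monolayer 2 or 3 (0.94 to 1.16), and in limma voom (1.04, adjusted p = 0.062).

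H2AC20 (-1.91), H2BC9 (-1.68) and H3C12 (-3.25) fell, and these 3 also fell in untreated aggregates against untreated monolayers, where no library is shared with this comparison. There 15 of the 37 members and 31.1% of all genes fell, and the share of all genes that fell in both comparisons was not counted. H2BC9 had 0.314, 0.378 and 0.847 CPM in primed and treated aggregates, against 2.05, 1.98 and 1.08 CPM in primed monolayers. Without primed monolayer 1, 5 members were called lower. H2AC18, which fell in untreated aggregates, averaged 9.80 ± 0.215 CPM in primed and treated aggregates and 9.37 ± 1.26 CPM in primed monolayers and did not pass. All 39 replication and all 20 mitosis genes fell, PCNA by 1.90 and MKI67 by 3.29 on the log2 scale, and SLBP fell by 0.56. Of 26 processing genes 7 rose and 11 fell, of 27 chaperones 3 rose and 20 fell, and of 12 replication-independent histones 2 rose and 7 fell.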

How the data were processed

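RNA of 21 AU565 libraries was extracted with TRIzol and made into TruSeq libraries, per the labels' protocols. The authors deposited whole-number read counts per gene, credited to featureCounts on hg38 in the submitters' processing notes, where limma is also named. Strand use, multi-mapping reads and poly(A) selection are not given in the sources used here. Columns were matched to samples by title, and the primed aggregates by elimination. Counts were tested in edgeR 4.0.16 (R 4.3.3) with TMM scaling, filterByExpr by group and robust quasi-likelihood fits of all 7 groups (14 residual degrees of freedom). The tests were two-sided, with p Benjamini-Hochberg adjusted over 15969 genes in each of 9 pairwise comparisons and 1 interaction. The filter left out H1-4, H2BC13 and H2BC7. The 10 members with the highest mean CPM are followed, with up to 6 rises and 6 falls per comparison among members of 1 CPM or more in a group, and 3 genes of smallest p per companion list of which some are printed. Members and lists were chosen with earlier results of these data known. Intervals cover counting error only. Samples were not paired by replicate number in the main tests. The low correlations of same-numbered libraries given below cannot exclude pairing. Sequences come from GENCODE v29 and RefSeq tables of GRCh38. The steps were tested on simulated data. Alternatives were DESeq2 1.42.0, limma voom 3.58.1, other scalings, no filter, other sample sets and leaving out each library. The result of 1 replication-independent gene is not reported here.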

Additional observations from a re-analysis of the deposited data

Results flagged for a closer look

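No clustered histone gene was singled out. Besides the companion counts given for the interaction, which include all 20 mitosis genes, 13 companion genes chosen by the rule for named genes had a priming effect that differed between treated and untreated aggregates by edgeR's interaction test (adjusted p = 8.04e-07 to 0.0268). On the log2 scale the differences were 0.48 in SLBP, -0.42 in the terminal uridylyltransferase TUT7, 0.41 in the exonuclease ERI1, -1.10 in HJURP, -1.01 in the chaperone ASF1B and -0.21 in SUPT6H. They were -0.72 in the nucleotide reductase subunit RRM2, 0.40 in MCM3, 0.36 in RFC4, -0.99 in FOXM1, -1.33 in CENPF, -0.72 in CCNB1 and -1.09 in MKI67. Treated and untreated aggregates lie in different sets of libraries, which cannot be told apart from treatment.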

How the results depend on the processing

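Of the 85 calls made for single members, 60 were made in all alternatives and 64 whichever library was left out. The summed log2 ratio of untreated aggregates over untreated monolayers was 0.33 with all members, and the libraries did not overlap. Without the 6 members known to give polyadenylated transcripts it was -0.067, and the libraries of these groups overlapped. That ratio without the 6 members was -0.71 for primed over untreated monolayers and 0.32 for primed and treated aggregates over primed monolayers. With all members these ratios were -0.61 and 0.66, as reported. For primed over untreated monolayers the all-member ratio was -0.68 with plain library sizes. Without the 6 libraries with MYH7, 7 members were lower in untreated aggregates than in monolayers and 0 in acutely exposed monolayers, in primed against untreated aggregates 1 was higher and 0 lower, in treated against untreated 0 were higher, in primed and treated against untreated 2 were higher, and against treated 1 was higher and 0 lower. With only the groups compared, 0 were higher in treated, and 0 in primed and treated, against untreated aggregates, 3 were higher and 0 lower in primed and treated against treated, and 0 higher against primed. Primed and treated against untreated aggregates had 0 higher in DESeq2, in limma voom and with the replicate number as a block, which moved no other count of calls by over 1.5 times. The block also ended the call of H2AC15 in untreated aggregates against monolayers (-1.30, adjusted p = 0.0516). Primed and treated against treated had 0 lower in DESeq2 and 1 higher with no filter. Limma voom called 0 lower in acutely exposed monolayers and 1 lower for the interaction, and plain library sizes 2 lower in primed against untreated aggregates.

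Leaving out 1 library gave 0 to 1 lower in acutely exposed monolayers, 0 to 1 higher and 0 to 1 lower in primed and treated against treated aggregates, 0 to 1 higher and 5 to 8 lower against primed and 0 to 2 higher against untreated aggregates. It gave 1 to 3 higher in treated and 0 to 1 lower in primed against untreated aggregates, 3 to 5 lower in primed and treated aggregates against primed monolayers, and 0 to 1 higher for the interaction. Among counts above those reported were those without primed and treated aggregate 1 or 3 or treated aggregate 3 (1 higher against treated), untreated aggregate 2 (2 higher in primed and treated) and primed aggregate 1 (1 higher for the interaction). Where a setting left 1 library in a group, that library was assumed to vary like the other groups. The causes of these differences were not tested. Members under 1 CPM rest on few counts, and differences in them may not be detectable at this depth. Correlations of same-numbered libraries were -0.167 to 0.174, and in no comparison were all 3 over 0.1.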
